A study of Homo sapiens with 9 samples.

Results

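The transcripts of 10 nuclear factors of the AP-1 and immediate early response were measured in OVCAR4 cells after knockdown of MPZL3. The genes are the FOS family (FOS, FOSB, FOSL1 and FOSL2), the JUN family (JUN, JUNB and JUND), ATF3, EGR1 and MYC. They were picked by name from the 58735 genes of the deposited count table, and all 10 passed the filter on low counts that left 16928 genes to test. The sum of the counts over 9 libraries ran from 270 for FOSB to 49616 for FOSL2.

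AP-1 is a dimer of leucine zipper proteins that binds short TGA-containing DNA sites. FOS proteins bind DNA only with a partner such as a JUN protein, whereas JUN proteins can also pair with each other and with factors of the ATF family. Growth factors, stress and loss of cell contact raise the transcripts of many of these genes within minutes through ERK, JNK and p38 kinases acting on factors such as ELK1 and SRF. EGR1, a zinc finger factor, and MYC, which pairs with MAX and drives growth genes, belong to the same early response, and FOSL1, FOSL2 and JUN are known from carcinoma cells as regulators of invasion genes.

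OVCAR4 is an established line of human high-grade serous ovarian carcinoma. The cells were transduced with lentivirus carrying a scramble (scr) control shRNA in the pLKO.1 vector, shMPZL3 #1 or shMPZL3 #2. All of them were selected with puromycin for 3 days, so the control cells share the infection and the drug. The labels list the scr cells as WT and the others as MPZL3 knock-down. There were 3 replicates of each of the 3 groups, described as biological replicates, which makes 6 knockdown and 3 control libraries. Each group is a pool of transduced cells of 1 line, and the factors were measured as RNA once, so nothing here bears on protein or phosphorylation.

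MPZL3, a predicted cell adhesion protein, had 403 to 648 counts per scr control library, 130 to 144 under shMPZL3 #1 and 281 to 375 under shMPZL3 #2, so every library went with its label. Total counts ran from 15040102 to 27835841 per library, the lowest being scr control replicate 3 and the highest shMPZL3 #2 replicate 3, and mitochondrial genes took 7.16% to 8.65% of them. The 10 ovarian epithelial markers had a summed level of 1400 to 1469 CPM per kilobase in control cells. CPM per kilobase is the count scaled to a fixed library total and divided by the deposited gene length in kilobases. The epithelial sum was 1432 to 1840 under shMPZL3 #1 and 1412 to 1837 under shMPZL3 #2. The 8 fibroblast markers summed to 2.82 to 3.62 on the same scale in control cells, 5.60 to 8.33 under shMPZL3 #1 and 5.96 to 7.16 under shMPZL3 #2, and DCN was at 0 in every group. For the 8 leukocyte and endothelial markers the sums were 1.66 to 2.17, 1.95 to 2.17 and 3.17 to 3.39. The part of these low levels in the results was not tested.

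Factors of the AP-1, ATF and SRF families are known to act through short DNA sites near the starts of genes, and windows around such letters are shown for the 4 genes that rose with both shRNAs and for EGR1. Of the 10 genes, 8 matched RefSeq promoters (build GRCh38.p14, from 250 bases before to 50 after the start), while FOSL1 and MYC were not matched. Each window is at most 30 bases, 5′ to 3′ on the strand of the gene, with the motif in capitals.
FOSL2: tgccattgtagTGACTCAtctcgggcaga
JUND: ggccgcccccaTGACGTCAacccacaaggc
JUN: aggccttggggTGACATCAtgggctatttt
ATF3: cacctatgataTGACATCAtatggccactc
EGR1, distal: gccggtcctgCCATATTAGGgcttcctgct
EGR1, proximal: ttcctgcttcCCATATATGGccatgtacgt

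FOSL2 holds the classical AP-1 site, TGACTCA, with its first base 5 bases after the start (plus strand, chr2:28392851-28392879, inside the GENCODE gene, which begins at 28392448). JUND holds the full cAMP-responsive element TGACGTCA from base -200 (minus strand, chr19:18281804-18281833). JUN and ATF3 share the letters TGACATCA, a form that differs from that element in 1 base, at -67 in JUN (minus strand, chr1:58784096-58784125, inside the longer GENCODE model of the gene) and at -123 in ATF3 (plus strand, chr1:212565273-212565302). EGR1 holds 2 CArG boxes, the letters bound by SRF, from -105 and -83 (plus strand, chr5:138465364-138465393 and chr5:138465386-138465415). The shares of all 35116 promoters with such letters on either strand were 7.71% for TGANTCA, 1.85% for TGACGTCA, 2.61% for TGACATCA and 1.29% for the CArG box. FOS holds TGACGTTT (0.487% of promoters) and FOSB holds TTACGTCA on the other strand (0.416%). TGACATCA, TTACGTCA and TGACGTTT were the only variants of the cAMP-responsive element that were searched. Their shares thus do not tell how common such variants are together. None of the 8 genes had the EGR site GCGTGGGCG (0.795%) or the E-box CACGTG (7.26%) in the window, and TATAAA (11.5%) was found in FOS, FOSB, JUNB and, at a start further downstream, ATF3. In JUNB it was the only motif found. The matches did not overlap one another, and they describe the letters and not binding.

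The level of each factor in control cells gives the scale on which the changes are read. On CPM per kilobase, JUND led with 65.3 ± 4.79 (SD, n = 3 scr control libraries), followed by JUNB at 47.6 ± 1.28, JUN at 35.5 ± 2.74, FOSL2 at 26.1 ± 4.24 and MYC at 21.9 ± 1.56. EGR1 stood at 7.24 ± 1.80, ATF3 at 2.38 ± 0.243 and FOSL1 at 1.52 ± 0.113. FOS and FOSB closed the order at 0.570 ± 0.286 and 0.275 ± 0.0432. The libraries of neighbours in this order overlapped only for FOSL2 with MYC and for FOS with FOSB. JUND lay above 96.3% of the genes tested in mean level over the scr control libraries, ATF3 above 44.1% and FOSB above 11.9%. OVCAR4 cells thus carried JUN family and FOSL2 transcripts at high levels and the classical FOS and FOSB transcripts at low ones. The deposited length exceeds that of the transcript with the longest coding sequence for ATF3 (4040 against 2033 bases), FOS (3238 against 2158) and FOSB (5553 against 3775). It also does so for MYC (3001 against 2366), FOSL1 (1887 against 1669) and FOSL2 (7157 against 6708). For JUN, JUNB and JUND the lengths are equal, so this scale can understate the genes with a longer deposited length beside them. With shMPZL3 #1, JUNB overlapped JUN, ATF3 overlapped EGR1, and FOSB overlapped FOS. With shMPZL3 #2, JUNB overlapped JUN and EGR1 overlapped ATF3.

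**Figure D1:**
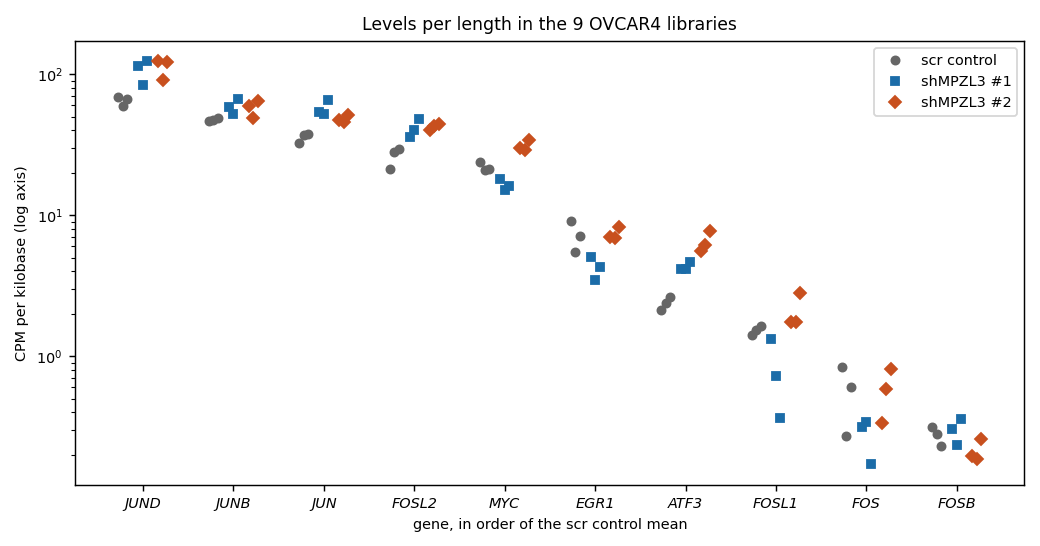
Level of each of the 10 genes in the 9 libraries, in CPM per kilobase of gene length on a log axis, with genes in the order of their scr control mean. Grey circles are scr control, blue squares shMPZL3 #1 and red diamonds shMPZL3 #2. The order runs from JUND at 65.3 in scr control to FOSB at 0.275, and the FOSL1 and FOS points are the most scattered.

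The first comparison asked whether loss of MPZL3 by either shRNA changed these factors. FOSL2, JUN, JUND and ATF3 were higher in the 6 knockdown than in the 3 control libraries, by 1.48-fold (JUN) to 2.27-fold (ATF3). In this grouped comparison edgeR's quasi-likelihood test called 4 of the 10 higher at an adjusted p under 0.05, and 0 lower, where 15.8% of all tested genes were called, 9.36% higher and 6.40% lower. At an unadjusted p under 0.05 the counts were 5 higher and 0 lower, and DESeq2 also called 4 and 0. For the same 4 genes the 6 knockdown libraries were all above the 3 control libraries, as they were for 11.8% of the genes tested. The median log2 fold change of the 10 genes was 0.20, beside 0.02 over all genes. RNA-seq counts are relative to the total RNA of the library, and in bulk RNA a change in the share of cells that express a gene and a change in RNA per cell cannot be told apart.

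**Figure D2:**
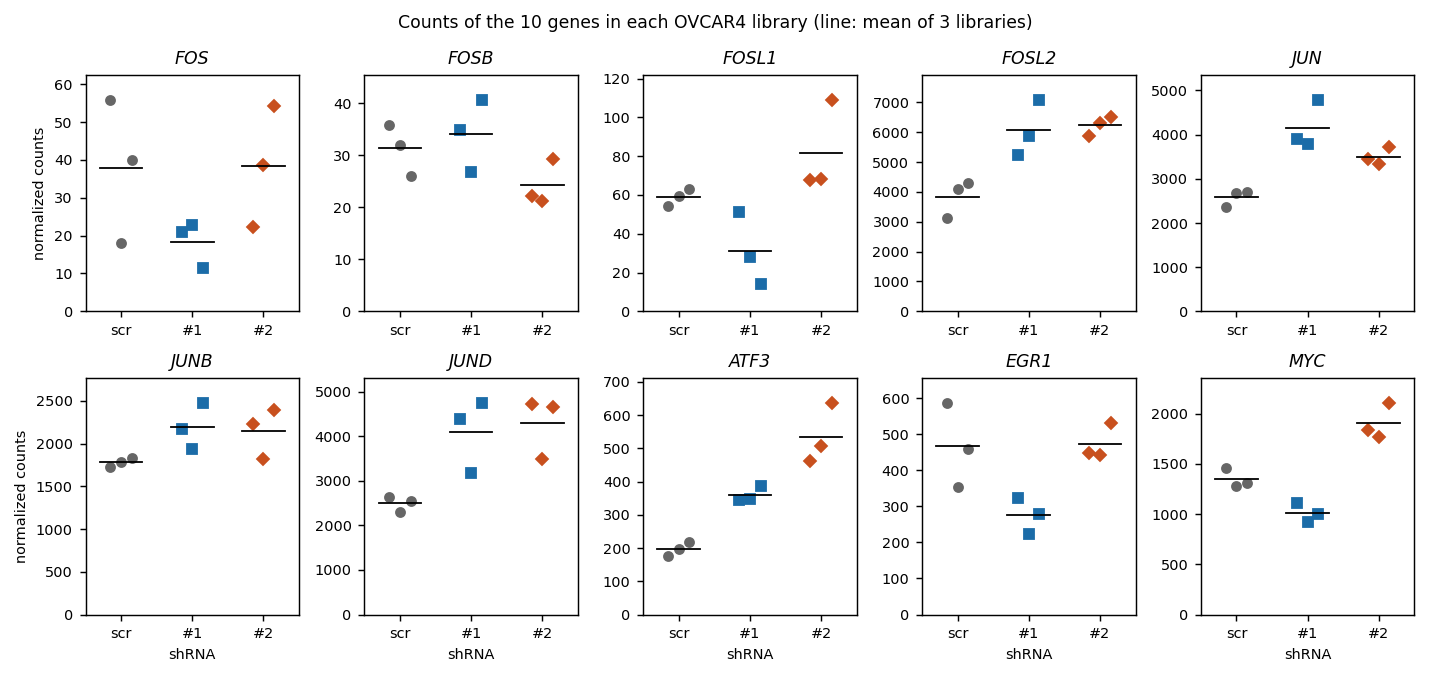
Normalized counts (counts brought to one common library size) of each gene in each library, on linear axes from 0, with the mean of the 3 libraries of a group as a black line. Grey circles are scr control, blue squares shMPZL3 #1 and red diamonds shMPZL3 #2. All 6 knockdown points lie above the 3 control points for FOSL2, JUN, JUND and ATF3, whereas MYC lies below the control points with shMPZL3 #1 and above them with shMPZL3 #2.

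Among the FOS family, FOSL2 (ENSG00000075426, plus strand, chromosome 2, 28392448 to 28417312 on GRCh38) was the dominant gene. FOSL2 encodes FRA2, a FOS protein without the strong activation domain of FOS itself. It had 3129, 4090 and 4295 normalized counts in replicates 1 to 3 of the control, 5230, 5890 and 7083 in the shMPZL3 #1 libraries and 5875, 6319 and 6494 in the shMPZL3 #2 libraries. The lowest knockdown library stood above the highest control library. The log2 fold change was 0.66 ± 0.13 (SE, edgeR, adjusted p = 0.000868) with shMPZL3 #1 and 0.70 ± 0.13 (adjusted p = 0.00122) with shMPZL3 #2. In the grouped comparison it was 0.68 ± 0.12, which is 1.60-fold (adjusted p = 0.00381), and an exact permutation test of log2 CPM over libraries gave p = 0.0119, the smallest that 6 against 3 libraries allow. Here and below, this test takes the 6 libraries as replicates of 1 condition, although they come from 2 shRNAs. For a single shRNA, 3 against 3 libraries cannot give a permutation p under 0.1. Between the shRNAs the difference was 0.04, with a 95% confidence interval from -0.23 to 0.30. An antisense RNA gene on the opposite strand of FOSL2 had 242 counts over all libraries, against 49616 for FOSL2, and shares no exon base with it.

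FOSL1 encodes FRA1, the FOS protein most often tied to invasive carcinoma cells, and lies on the minus strand of chromosome 11 from 65892049 to 65900573. Its normalized counts were 54.5, 59.4 and 63.2 in the control libraries, 51.3, 27.8 and 14.2 in those of shMPZL3 #1 and 67.8, 68.0 and 109 in those of shMPZL3 #2. All shMPZL3 #1 libraries lay below the control libraries, as for 22.8% of the genes tested. All shMPZL3 #2 libraries lay above them, as for 18.7%. Neither difference from control passed the test, with -0.92 ± 0.37 (edgeR, adjusted p = 0.0650) for shMPZL3 #1 and 0.47 ± 0.34 (adjusted p = 0.385) for shMPZL3 #2. The fall with shMPZL3 #1 passed it without shMPZL3 #1 replicate 1 (-1.47, adjusted p = 0.00655) and with no filter on low counts (adjusted p = 0.0250). The shRNAs themselves differed, by 1.39 ± 0.35 on the log2 scale or 2.62-fold (edgeR, adjusted p = 0.0138). That call was lost without shMPZL3 #1 replicate 3 (adjusted p = 0.0550) or shMPZL3 #2 replicate 3 (adjusted p = 0.0882), and the counts behind it are 15 to 145 per library.

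FOS and FOSB, the founding members of the family, were close to the bottom of the measured range. FOS (plus strand, chromosome 14, 75278774 to 75282230) had 55.8, 17.9 and 39.9 normalized counts in replicates 1 to 3 of the control, 21.1, 22.9 and 11.3 in the shMPZL3 #1 libraries and 22.3, 38.5 and 54.1 in the shMPZL3 #2 libraries. The 3 groups overlapped, and the control libraries alone spanned more than the shMPZL3 #1 libraries. The log2 fold change of FOS was -1.01 with shMPZL3 #1 (95% confidence interval -1.99 to -0.03, edgeR, adjusted p = 0.108) and 0.05 with shMPZL3 #2 (-0.87 to 0.98, adjusted p = 0.952). It passed the test with shMPZL3 #1 when scr control replicate 2 was left out (-1.38, edgeR, adjusted p = 0.0368). FOSB (plus strand, chromosome 19, 45467995 to 45475179) ran from 26.1 to 35.9 in the control, from 26.8 to 40.7 under shMPZL3 #1 and from 21.3 to 29.3 under shMPZL3 #2. Its groups overlapped too, with 0.12 (-0.60 to 0.84) for shMPZL3 #1 and -0.36 (-1.10 to 0.38) for shMPZL3 #2, neither called. ERCC1, on the opposite strand, overlaps FOSB and had 9158 counts against 270 for FOSB, and since the libraries carry no strand information reads from unspliced ERCC1 RNA could not be told from FOSB reads. ERCC1 itself was not called in any comparison.

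FOS is the textbook example of a short-lived transcript whose 3′ UTR carries AU-rich elements, and the strict element TTATTTATT was found in FOS and FOSL2 alone among the 10 genes. The sites are shown because they set these 2 members of the family apart in sequence, with 29 bases each from the GENCODE release 29 transcripts and the element in capitals.
FOS (transcript FOS-201): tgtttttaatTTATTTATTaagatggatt
FOSL2 (transcript FOSL2-201): atttattttaTTATTTATTttaaatgttt

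Of 17366 genes with a 3′ UTR of at least 100 bases, 7.78% hold that element. That share takes no account of length. The 3′ UTR of FOSL2 has 4864 bases and that of FOS 806, beside a median of 935 over those genes. The shorter ATTTA occurred 8.40 times per kilobase of 3′ UTR in MYC, 6.20 in FOS and 4 in JUNB, densities above those of 97.8%, 94.04% and 83.3% of genes. The other 7 genes, FOSL2 at 1.85 among them, lay between 0.810 (EGR1) and 2.46 (ATF3), around the median of all genes, 1.55. FOSL2, which holds the element, rose with both shRNAs, whereas FOS, which also holds it, was not called with either.

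Taken as a family per kilobase, the FOS genes summed to 28.5 ± 4.11 in control cells, 42.7 ± 5.89 under shMPZL3 #1 and 45.3 ± 2.92 under shMPZL3 #2 (SD, n = 3 each). FOSL2 made up 91.5% ± 1.99 of that sum in control cells, 96.6% ± 1.69 under shMPZL3 #1 and 93.7% ± 1.51 under shMPZL3 #2. FOSL1 gave 5.39% ± 0.439, 2.00% ± 1.41 and 4.62% ± 1.08 of it. Nearly all FOS family transcript in these cells was thus FOSL2 in every group.

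The JUN family rose in 2 of its 3 members with both shRNAs. JUN (ENSG00000177606, minus strand, chromosome 1, 58780788 to 58784327) is a gene of 1 exon that encodes the strongest activator of the family. It had 2352, 2680 and 2713 normalized counts in replicates 1 to 3 of the control, 3894, 3791 and 4787 in the shMPZL3 #1 libraries and 3457, 3340 and 3711 in the shMPZL3 #2 libraries. Every knockdown library stood above every control library. The shMPZL3 #1 libraries stood above those of shMPZL3 #2, as for 14.6% of the genes tested. The log2 fold change was 0.69 ± 0.11 with shMPZL3 #1 (edgeR, adjusted p = 0.000167), 0.44 ± 0.11 with shMPZL3 #2 (adjusted p = 0.0102) and 0.57 ± 0.12 in the grouped comparison (adjusted p = 0.00795, exact permutation p = 0.0119). Between shMPZL3 #2 and shMPZL3 #1 the difference of -0.25 was not called (95% confidence interval -0.47 to -0.02, adjusted p = 0.131). Without scr control replicate 1, the lowest of the control libraries for JUN, the grouped call (adjusted p = 0.0753) and the shMPZL3 #2 call (adjusted p = 0.0759) were lost, the latter also without shMPZL3 #2 replicate 3 (adjusted p = 0.0550).

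JUND (ENSG00000130522, minus strand, chromosome 19, 18279760 to 18281622) encodes the JUN protein that resting cells express steadily. Its normalized counts were 2642, 2291 and 2559 in the control libraries, 4398, 3180 and 4746 in those of shMPZL3 #1 and 4732, 3485 and 4667 in those of shMPZL3 #2. Replicate 2 was the lowest in each of the 3 groups, and it still lay above every control library in both knockdown groups. JUND was 1.65-fold higher with shMPZL3 #1 (log2 0.72 ± 0.14, edgeR, adjusted p = 0.00107) and 1.72-fold higher with shMPZL3 #2 (0.78 ± 0.14, adjusted p = 0.00120), and 1.68-fold in the grouped comparison (0.75 ± 0.14, adjusted p = 0.00425, exact permutation p = 0.0119). The shRNAs differed by 0.06, with a 95% confidence interval from -0.23 to 0.36.

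JUNB, a JUN protein that can restrain JUN in dividing cells, was not called in any comparison. The gene (plus strand, chromosome 19, 12791496 to 12793315) had 1730, 1781 and 1826 normalized counts in replicates 1 to 3 of the control, 2172, 1940 and 2473 in the shMPZL3 #1 libraries and 2233, 1821 and 2398 in the shMPZL3 #2 libraries. Of the 6 knockdown libraries 5 exceeded all controls, shMPZL3 #2 replicate 2 being the exception. The log2 difference was 0.30 with shMPZL3 #1 (95% confidence interval 0.06 to 0.55, edgeR, adjusted p = 0.0527), 0.27 with shMPZL3 #2 (0.03 to 0.52, adjusted p = 0.119) and 0.29 grouped (adjusted p = 0.0866). It passed the threshold in the grouped comparison (adjusted p = 0.0403) and with shMPZL3 #2 (adjusted p = 0.0270) once shMPZL3 #2 replicate 2 was left out, and with shMPZL3 #1 once shMPZL3 #1 replicate 2 was left out (adjusted p = 0.0205). The grouped call was also made by the mean of both shRNAs in the edgeR fit of 3 groups (adjusted p = 0.0411). DESeq2 also called it with shMPZL3 #1 (adjusted p = 0.0469), as did edgeR with no filter (0.0424) or with at least 10 counts in every library (0.0298). HOOK2, on the opposite strand, shares 259 of the 1820 exon bases of JUNB and had 15781 counts against its 18649, so reads over that stretch cannot be assigned by strand. HOOK2 was not called in any comparison and its grouped log2 fold change was 0.08.

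The JUN genes together came to 148 ± 4.36 CPM per kilobase in control cells, 223 ± 34.6 under shMPZL3 #1 and 218 ± 28.1 under shMPZL3 #2. JUND took 44.0% ± 2.65, 47.9% ± 3.20 and 51.3% ± 2.25 of the sum. JUNB took 32.1% ± 0.843 in control cells, 26.4% ± 1.15 under shMPZL3 #1 and 26.4% ± 0.603 under shMPZL3 #2, and its share in each knockdown library was below that in each control library.

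ATF3 showed the largest rise of the 10 genes in the grouped comparison. It encodes a stress-induced partner of JUN proteins that is itself induced by the integrated stress response, and lies on the plus strand of chromosome 1 from 212565334 to 212620777 (ENSG00000162772). It had 177, 198 and 217 normalized counts in replicates 1 to 3 of the control, 345, 347 and 387 in the shMPZL3 #1 libraries and 462, 507 and 636 in the shMPZL3 #2 libraries. The 3 groups did not overlap and ran in that order. Of the genes tested, 23.9% had all shMPZL3 #1 libraries above all control libraries, and 18.7% all shMPZL3 #2 libraries. The rise was 1.82-fold with shMPZL3 #1 (log2 0.87 ± 0.15, edgeR, adjusted p = 0.000399) and 2.71-fold with shMPZL3 #2 (1.44 ± 0.15, adjusted p = 8.28e-06). The grouped log2 fold change was 1.18 ± 0.20 (adjusted p = 0.00246, exact permutation p = 0.0119). The difference between shMPZL3 #2 and shMPZL3 #1 was 0.58 ± 0.14 (edgeR, adjusted p = 0.0118), a call lost without shMPZL3 #2 replicate 3 (0.42, adjusted p = 0.0944). MPZL3 itself was lower with shMPZL3 #1 than with shMPZL3 #2, so the larger rise of ATF3 was with the shRNA that left more MPZL3 transcript.

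The second comparison took each shRNA on its own, and with shMPZL3 #1 EGR1 and MYC were the 2 genes of the 10 called lower. FOS (-1.01) and FOSL1 (-0.92) had larger negative log2 values with shMPZL3 #1 but did not pass the test. EGR1 (ENSG00000120738, plus strand, chromosome 5, 138465490 to 138469315), the gene with the CArG boxes shown above, had 586, 355 and 459 normalized counts in replicates 1 to 3 of the control, 323, 225 and 278 in the shMPZL3 #1 libraries and 447, 442 and 531 in the shMPZL3 #2 libraries. Only the shMPZL3 #1 libraries stood clear of the controls, below them, as for 22.8% of the genes tested. EGR1 fell by 0.76 on the log2 scale with shMPZL3 #1 (SE 0.18, edgeR, adjusted p = 0.00380) and differed from control by 0.03 with shMPZL3 #2 (95% confidence interval -0.34 to 0.39, adjusted p = 0.937). The direct difference between the shRNAs was 0.78 ± 0.18 or 1.72-fold (edgeR, adjusted p = 0.00640). Over both shRNAs together it was -0.31 (adjusted p = 0.401).

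MYC (ENSG00000136997, chromosome 8) moved in opposite directions with the 2 shRNAs. Its normalized counts were 1459, 1278 and 1310 in the control libraries, 1109, 925 and 999 in those of shMPZL3 #1 and 1835, 1772 and 2105 in those of shMPZL3 #2. No library of one group reached those of another. Of the genes tested, 22.8% had all shMPZL3 #1 libraries below all control libraries, and 18.7% had all shMPZL3 #2 libraries above them. MYC fell by 0.42 on the log2 scale with shMPZL3 #1 (SE 0.11, edgeR, adjusted p = 0.00701) and rose by 0.50 ± 0.11 or 1.41-fold with shMPZL3 #2 (adjusted p = 0.00410). The shRNAs differed by 0.91 ± 0.11, which is 1.88-fold (edgeR, adjusted p = 3.79e-05), and in the grouped comparison the value was 0.11 ± 0.24 (adjusted p = 0.784).

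Counted over the 10 genes, 4 rose and 2 fell with shMPZL3 #1 by edgeR's test (of all genes tested 32.0% were called, 16.8% higher and 15.3% lower), and 5 rose and 0 fell with shMPZL3 #2 (of all genes 15.2% were called, 9.36% higher and 5.80% lower). For shMPZL3 #2 no gene was lower at an unadjusted p under 0.05 or by DESeq2 either. With shMPZL3 #1 the counts at an unadjusted p under 0.05 were 5 higher and 4 lower, and DESeq2 called 5 and 2. The median log2 fold change of the 10 was 0.21 with shMPZL3 #1 and 0.46 with shMPZL3 #2, beside 0.01 and 0.00 over all genes. Both comparisons use the same 3 control libraries. Directly between the shRNAs, 4 of the 10 were higher with shMPZL3 #2 (FOSL1, ATF3, EGR1 and MYC) and 0 lower by edgeR, where 15.1% of all genes were called, 7.56% higher and 7.56% lower, and 1 (JUN) was lower at an unadjusted p under 0.05. DESeq2 also called 4 and 0. Without shMPZL3 #2 replicate 3 the count of 4 fell to 2.

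**Figure D3:**
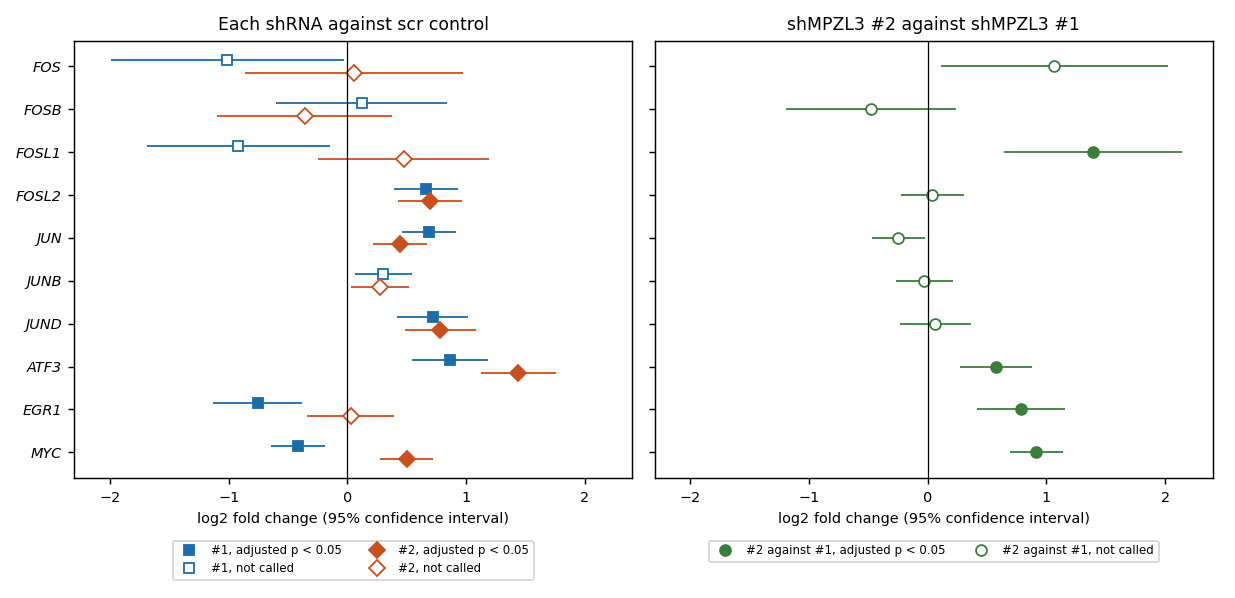
Log2 fold change of the 10 genes with its 95% confidence interval, on the left for shMPZL3 #1 (blue squares) and shMPZL3 #2 (red diamonds) against scr control and on the right for shMPZL3 #2 against shMPZL3 #1 (green circles). Filled symbols passed an adjusted p of 0.05 in edgeR. FOSL2, JUN, JUND and ATF3 are filled to the right of 0 with both shRNAs, and MYC is filled at -0.42 with shMPZL3 #1 and at 0.50 with shMPZL3 #2.

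The genes around these factors were read from lists written from general knowledge of their pathways. Of 13 tested partners of AP-1 with a leucine zipper, 3 rose in the grouped comparison, 4 with shMPZL3 #1 and 4 with shMPZL3 #2 (of all genes 9.36%, 16.8% and 9.36%), and 1 fell with each shRNA (15.3% and 5.80%). BATF2, a BATF family partner of JUN proteins, had 3 to 4 counts per control library, 18 to 50 under shMPZL3 #1 and 26 to 43 under shMPZL3 #2 (grouped log2 fold change 2.93, edgeR, adjusted p = 0.00205). MAFK, a small MAF protein, rose by 0.61 (adjusted p = 0.00864) and CREB5 by 0.53 (adjusted p = 0.0258) over both shRNAs. In the grouped comparison 0 fell by edgeR's test, 1 at an unadjusted p under 0.05 and 1 by DESeq2. Without scr control replicate 1 the counts of genes that rose were 1 in the grouped comparison and 2 with shMPZL3 #1, and both single falls were lost without any 1 of the scr control libraries or without shMPZL3 #1 replicate 1. The fall with shMPZL3 #2 was also lost without shMPZL3 #2 replicate 1 or 3.

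Among 23 tested immediate early genes beyond the 10, 8 rose in the grouped comparison, 11 with shMPZL3 #1 and 8 with shMPZL3 #2 (of all genes 9.36%, 16.8% and 9.36%), while 1 (ID1) fell with shMPZL3 #2 (5.80%). IER3, a stress-induced regulator of survival, stood at 2901 ± 455 normalized counts in control cells, at 6396 ± 525 under shMPZL3 #1 and at 6722 ± 467 under shMPZL3 #2 (SD, n = 3 each). Over both shRNAs it rose by 1.18 ± 0.12 on the log2 scale (edgeR, adjusted p = 0.000106). ZFP36L1, which binds AU-rich elements and promotes decay of the RNAs that carry them, rose by 0.86 (adjusted p = 0.000529), and CYR61, a secreted matrix protein, rose by 0.80 (adjusted p = 0.000713). KLF4, a zinc finger factor of epithelia, rose by 1.14 with shMPZL3 #1 (adjusted p = 0.000672) and its value was 0.45 with shMPZL3 #2 (adjusted p = 0.177), with a difference of -0.69 between them (adjusted p = 0.0295). By edgeR 0 of the list fell in the grouped comparison and with shMPZL3 #1, 1 in each at an unadjusted p under 0.05 and 0 by DESeq2. The list median was 0.31 in the grouped comparison, and without scr control replicate 1 the 8 grouped rises became 5.

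Among 13 tested genes that report on or restrain ERK signalling, 7 were higher with shMPZL3 #2 than with shMPZL3 #1 (of all genes 7.56%) and 6 were not called between the shRNAs. Against control, 2 rose and 3 fell with shMPZL3 #1, close to the 16.8% and 15.3% of all genes, and 6 rose with shMPZL3 #2 (9.36%). DESeq2 called 6 higher between the shRNAs. By edgeR 0 fell with shMPZL3 #2, and 0 were lower than with shMPZL3 #1, as at an unadjusted p under 0.05 and by DESeq2. PHLDA1 stood at 51.4 ± 7.58 normalized counts in control cells, at 98.9 ± 14.99 under shMPZL3 #1 and at 160 ± 39.1 under shMPZL3 #2. The shRNAs differed by 0.69 (edgeR, adjusted p = 0.0399). DUSP6, the phosphatase that ERK activity induces against ERK itself, had 3 to 21 counts per control library, 12 to 18 under shMPZL3 #1 and 30 to 68 under shMPZL3 #2 (difference between shRNAs 1.65, adjusted p = 0.0304). ETV5, an ETS factor raised by ERK, rose by 1.48 with shMPZL3 #2 (adjusted p = 0.00193), and its value with shMPZL3 #1 was 0.67 (adjusted p = 0.0928). SPRED3, an inhibitor of the pathway, rose with both (0.97 with shMPZL3 #1 and 1.30 with shMPZL3 #2). The 7 genes higher with shMPZL3 #2 became 4 without shMPZL3 #1 replicate 2 or shMPZL3 #2 replicate 1 and 3 without shMPZL3 #2 replicate 3, and the 2 genes that rose with shMPZL3 #1 became 1 without scr control replicate 1, scr control replicate 2 or shMPZL3 #1 replicate 1. In the grouped comparison 4 rose (of all genes 9.36%), which became 1 without scr control replicate 1 or 2 and 2 without scr control replicate 3 or shMPZL3 #2 replicate 1.

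Of 18 tested kinases and serum response factors upstream of the 10 genes, 1 rose in the grouped comparison, 1 rose and 2 fell with shMPZL3 #1, and 2 rose with shMPZL3 #2, with list medians of -0.00, -0.01 and 0.05. Of all genes 9.36% rose in the grouped comparison, 16.8% rose and 15.3% fell with shMPZL3 #1, and 9.36% rose with shMPZL3 #2, so these counts were near or under the background. These counts ranged from 0 to 3 when single libraries were left out, each of the scr control libraries among them. ELK3, an ETS partner of SRF that represses its targets until ERK phosphorylates it, stood at 313 ± 11.8 normalized counts in control cells, at 132 ± 28.9 under shMPZL3 #1 and at 274 ± 7.65 under shMPZL3 #2. It fell by 1.24 with shMPZL3 #1 (edgeR, adjusted p = 4.82e-05) and was 1.05 higher with shMPZL3 #2 than with shMPZL3 #1 (adjusted p = 0.000488). MRTFA, the actin-regulated partner of SRF, rose by 0.32 over both shRNAs (adjusted p = 0.0411), and MAP2K7, a kinase upstream of JNK, rose by 0.41 with shMPZL3 #2 (adjusted p = 0.0105).

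Of 20 tested genes known to be switched on by AP-1, 9 rose in the grouped comparison, 8 rose and 2 fell with shMPZL3 #1, and 15 rose with shMPZL3 #2, where the list median was 0.95 against 0.64 with shMPZL3 #1. The shares of all genes were 9.36% higher grouped, 16.8% higher and 15.3% lower with shMPZL3 #1, and 9.36% higher with shMPZL3 #2. MMP10, a secreted metalloprotease, rose by 1.82 with shMPZL3 #1 (adjusted p = 0.000295) and by 2.10 with shMPZL3 #2 (adjusted p = 0.000162). MMP1 was at 0 to 3 counts per control library, 0 to 6 under shMPZL3 #1 and 10 to 29 under shMPZL3 #2. CXCL8, a chemokine, had 909 ± 420, 1097 ± 92.4 and 5853 ± 1745 normalized counts in the 3 groups, a rise of 2.68 with shMPZL3 #2 (adjusted p = 7.44e-06). Directly between the shRNAs 11 of the 20 were higher and 2 lower with shMPZL3 #2 (of all genes 7.56% each way). By edgeR 0 fell in the grouped comparison and with shMPZL3 #2, 1 in each at an unadjusted p under 0.05, and DESeq2 called 1 and 0. Without scr control replicate 1 the 9 grouped rises became 5, and 1 of the 2 falls with shMPZL3 #1 was lost, as it was without shMPZL3 #1 replicate 2.

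**Figure D4:**
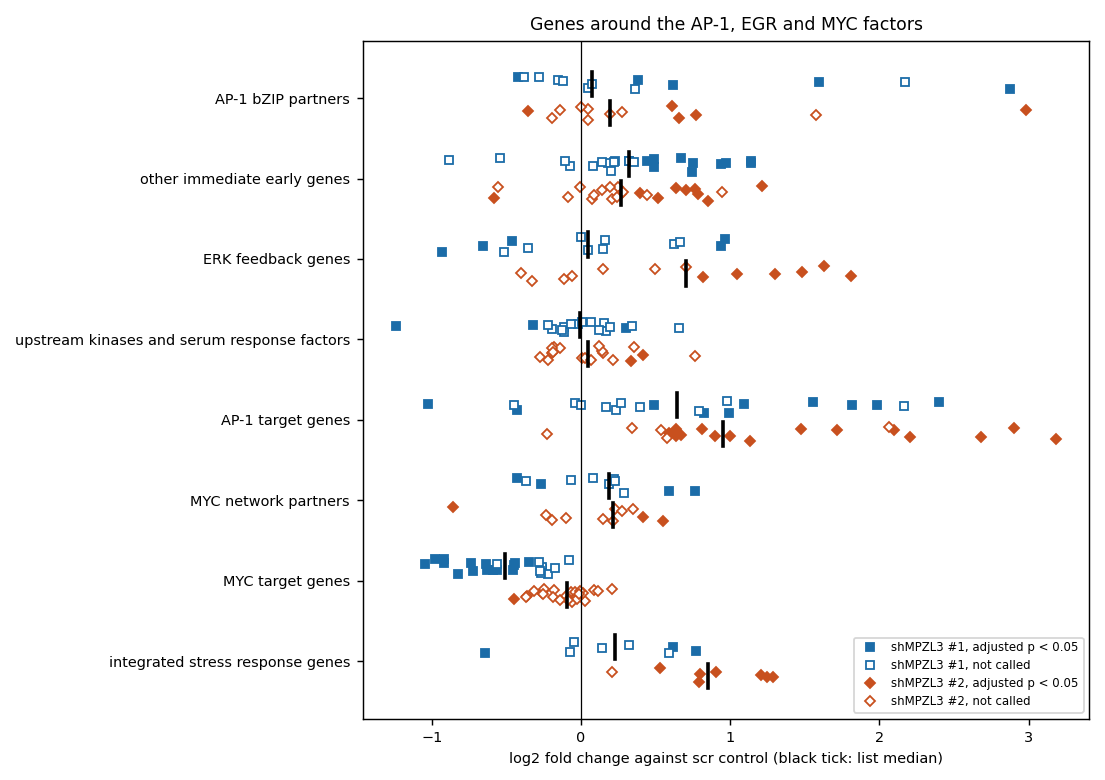
Log2 fold change against scr control of each tested gene of 8 lists, with shMPZL3 #1 as blue squares (upper line of each list) and shMPZL3 #2 as red diamonds (lower line), filled where the adjusted p passed 0.05, and the list median as a black tick. AP-1 target genes lie mostly to the right of 0 with both shRNAs (medians 0.64 and 0.95), and MYC target genes lie to the left of 0 with shMPZL3 #1 (median -0.51) and near 0 with shMPZL3 #2 (median -0.09).

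Of 24 tested MYC target genes, mostly of ribosome assembly and growth, 15 fell with shMPZL3 #1 (of all genes 15.3%) and 9 were not called. All 24 had a negative log2 fold change, with a median of -0.51. With shMPZL3 #2, 0 of the 24 rose (of all genes 9.36%) and 1 (ODC1) fell (5.80%), with a median of -0.09, while 8 were lower at an unadjusted p under 0.05 and 3 by DESeq2. No gene of the list rose with either shRNA or in the grouped comparison by edgeR, at an unadjusted p under 0.05 or by DESeq2. ODC1, the first enzyme of polyamine synthesis, fell by 0.92 with shMPZL3 #1 (edgeR, adjusted p = 4.81e-05) and by 0.45 with shMPZL3 #2 (adjusted p = 0.0200). HSPD1 and HSPE1, the mitochondrial chaperonins, fell by 1.05 (adjusted p = 1.23e-05) and 0.98 (adjusted p = 9.64e-05) with shMPZL3 #1. NOP16, a nucleolar protein of ribosome assembly, stood at 1178 ± 102 normalized counts in control cells, at 624 ± 55.2 under shMPZL3 #1 and at 948 ± 34.6 under shMPZL3 #2. Between the shRNAs 12 of the 24 were higher with shMPZL3 #2 (of all genes 7.56%) and 0 lower (edgeR, with 0 lower also at an unadjusted p under 0.05 and by DESeq2), a count that became 5 without shMPZL3 #1 replicate 3 and 6 without shMPZL3 #2 replicate 1. In the grouped comparison 7 fell (of all genes 6.40%), a count that was 0 without scr control replicate 1, 1 without scr control replicate 2 or 3 or shMPZL3 #1 replicate 1, and 3 without shMPZL3 #1 replicate 2. The single fall with shMPZL3 #2 was lost without scr control replicate 1 or shMPZL3 #2 replicate 3, and became 3 without shMPZL3 #2 replicate 2 or shMPZL3 #1 replicate 2 and 4 without shMPZL3 #1 replicate 3.

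Of 11 tested partners of MYC in its network, 2 rose and 2 fell with shMPZL3 #1, near the 16.8% and 15.3% of all genes, 2 rose and 1 fell with shMPZL3 #2 (9.36% and 5.80%), and 2 rose in the grouped comparison (9.36%). MXD1, which competes with MYC for MAX, rose by 0.59 with shMPZL3 #1 (edgeR, adjusted p = 0.00998) and by 0.55 with shMPZL3 #2 (adjusted p = 0.0299). MXD4, of the same kind, rose by 0.77 with shMPZL3 #1 (adjusted p = 0.000162), was at 0.15 with shMPZL3 #2 (adjusted p = 0.434) and differed between them by -0.62 (adjusted p = 0.00215). MYCN fell by 0.86 with shMPZL3 #2 (adjusted p = 0.00656) and MLX by 0.43 with shMPZL3 #1 (adjusted p = 0.00912). Counts of 2 in this list ranged from 0 to 3 when single libraries were left out, each of the scr control libraries among them.

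ATF3 is also a gene of the integrated stress response. Of 8 other genes of that response, 7 rose with shMPZL3 #2 (of all genes 9.36%), and 5 were higher with shMPZL3 #2 than with shMPZL3 #1 (7.56%). The 7 rises became 5 without scr control replicate 2 or shMPZL3 #2 replicate 3, and 6 without scr control replicate 3. With shMPZL3 #1, 2 rose and 1 (ATF4) fell, near the 16.8% and 15.3% of all genes. By edgeR 0 fell with shMPZL3 #2, at an unadjusted p under 0.05 and by DESeq2 too. DDIT3, the factor CHOP, rose by 0.77 with shMPZL3 #1 (edgeR, adjusted p = 0.00106) and by 0.79 with shMPZL3 #2 (adjusted p = 0.00200), with a difference of 0.01 between them that was not called. TRIB3 averaged 647 ± 46.9 normalized counts in control cells, 626 ± 66.0 under shMPZL3 #1 and 1580 ± 292 under shMPZL3 #2, a rise of 1.29 with shMPZL3 #2 (adjusted p = 7.53e-06). CHAC1 rose by 1.20 (adjusted p = 0.000613) and ASNS by 1.24 (adjusted p = 0.0131) with shMPZL3 #2. In the grouped comparison 2 rose (of all genes 9.36%), and 5 did without shMPZL3 #1 replicate 2.

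The genes whose pattern over the 9 libraries was most like that of each factor were found by Pearson correlation of log2 CPM among 11908 protein-coding genes whose average log2 CPM reached 1 or more. FOSL2 was closest to THBS1 (r = 0.994) and ADAMTS14 (0.992), JUN to DEPP1 and LIMS2 (0.993 and 0.992), and JUND to CDC42EP1 and SERPINH1 (0.998 and 0.986). ATF3 was closest to CDCP1 (0.986). JUNB was closest to CDC34 and CRTC2 (0.986 and 0.985), MYC to MARS and C6orf62 (0.992 and 0.987), and EGR1 to KDM2B and PLTP (both 0.966). For the genes with few counts the best values were lower, with OXTR and AMN for FOSL1 (0.968 and 0.965), CCDC115 and SCARF2 for FOSB (0.934 and 0.919) and P4HA1 and FRG1 for FOS (0.928 and 0.913). These values describe libraries that share groups and depth, and the highest of 11908 values is high by selection.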

How the data were processed

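Poly-A libraries without strand information were sequenced on the NovaSeq platform. The submitters' processing notes name HISAT2 2.0.5, featureCounts 1.5.0-p3 and hg38. The deposited values are raw counts per gene, made by the authors with no normalization and no pooling, and the authors analysed them with DESeq2. Identifiers, positions and names of all 58735 genes were those of GENCODE release 29 on GRCh38. The libraries of OVCA433 cells were not analysed here.

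The counts were analysed with edgeR 4.0.16 (quasi-likelihood test, filterByExpr, TMM, Benjamini-Hochberg over the 16928 genes tested, two-sided, adjusted p under 0.05) in R 4.3.3. DESeq2 1.42.0 served as an alternative, limma 3.58.1 came with edgeR, and sequences were searched in Python 3.11.15. The grouped comparison was fitted as 2 groups. The comparisons of single shRNAs came from a fit of 3 groups. Normalized counts are scaled to the mean effective library size, and log2 CPM used a prior count of 2. Tested genes held 99.8% to 99.9% of the counts. Replicates of a group differed by more than counting noise (chi-square per gene 3.16 to 23.7). The tests were checked on simulated counts. Of genes given a 1.5-fold change, 34 of 57 were recovered in the grouped comparison. With shMPZL3 #1 it was 38 of 74, with shMPZL3 #2 31 of 78, and between the shRNAs 34 of 72. Few of the 16928 genes were changed in the simulated counts, and in the grouped comparison both shRNAs were given the same change. In the data 15.1% to 32.0% of genes were called, so these counts do not give the recovery of the real tests. A gene not called can still have changed.

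The 10 genes, the pathway lists and the tests were chosen with earlier results of these data known. From each list up to 4 genes are named, those with the largest absolute grouped fold change among genes called in the grouped comparison or with either shRNA; ID1, ATF4 and single genes of counts under 5 were named after their values were seen. For each factor the 2 most alike genes are named. Some genes that these rules name are not reported here.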

Additional observations from a re-analysis of the deposited data

Results flagged for a closer look

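In 4 of the 10 genes the 2 shRNAs against MPZL3 gave effects that differed by the direct test between them, and the log2 difference of shMPZL3 #2 against shMPZL3 #1 was 1.39 for FOSL1, 0.58 for ATF3, 0.78 for EGR1 and 0.91 for MYC (edgeR, adjusted p = 0.0138, 0.0118, 0.00640 and 3.79e-05). In each of these genes all 3 shMPZL3 #2 libraries lay above all 3 shMPZL3 #1 libraries, as they did for 15.4% of the genes tested. MYC is the gene among them that passed the test against scr control in opposite directions. ATF3 rose with both shRNAs and by more with shMPZL3 #2, EGR1 fell with shMPZL3 #1, and FOSL1 was not called against control with either. MPZL3 transcript itself was 2.43-fold higher with shMPZL3 #2 than with shMPZL3 #1. Whether the depth of knockdown or the sequence of the shRNA goes with these differences cannot be told apart, since each shRNA has 1 level of knockdown.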

How the results depend on the processing

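The alternatives were DESeq2, RLE size factors, no filter, at least 10 counts in every library, the mean of both shRNAs in the fit of 3 groups, a block for the replicate number, and leaving out each library in turn. FOSL2, JUND and ATF3 against scr control, EGR1 and MYC with shMPZL3 #1, and MYC with shMPZL3 #2 were called under every one of them. Of the counts of the 10 genes called, 1 changed by more than 1.5 times, the 4 genes higher with shMPZL3 #2 than with shMPZL3 #1, which ranged from 2 to 4 when single libraries were left out. Over the single genes, 445 values kept their direction and side of the threshold, 13 passed it newly, 6 were lost and 16 changed sign. The newly called genes were JUNB, FOSL1 and FOS. None of those that changed sign was called, and all did so on leaving out 1 library. Their lowest and highest log2 values were, in the grouped comparison, -0.74 and 0.0012 for FOS, -0.35 and 0.14 for FOSL1, and -0.0051 and 0.22 for MYC. They were -0.025 and 0.26 for FOSB with shMPZL3 #1, -0.31 and 0.44 for FOS and -0.14 and 0.22 for EGR1 with shMPZL3 #2, and, for shMPZL3 #2 against shMPZL3 #1, -0.067 and 0.16 for FOSL2, -0.12 and 0.079 for JUNB and -0.089 and 0.20 for JUND. Same-numbered libraries of different groups deviated together with r from -0.00 to 0.22, over 0.1 in 3 of 9 pairs. The median r was 0.043 for them and -0.028 for pairs of other numbers. Between the shRNAs the same-numbered pairs had r of 0.14, 0.22 and 0.097. In both other groups, 5 of the 9 libraries correlated best with their own number. The main tests did not take the numbers as a pairing, but these values do not exclude one. With the replicate number as a block, 4 genes were higher and 0 lower in the grouped comparison, 5 and 3 with shMPZL3 #1, 6 and 0 with shMPZL3 #2, and 4 and 0 between the shRNAs. The genes called under the block and not without it were JUNB with shMPZL3 #1 (adjusted p = 0.0155) and with shMPZL3 #2 (adjusted p = 0.0460) and FOSL1 with shMPZL3 #1 (log2 -0.95, adjusted p = 0.0400). FOS, FOSB and FOSL1 had 12 to 145 counts per library, which limits the precision of their differences, and the cause of these changes was not tested.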
